A study of Cicer arietinum with 8 samples.

Results

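The 64 features described here were chickpea (Cicer arietinum) cDNA clones of unclear function on a spotted array of 768 features. They were the clones whose entry in the study's feature list read exactly Unclear, without those whose names mark them as grasspea or lentil clones and without 2 further clones. Each is known by the GenBank accession of its expressed sequence tag, 61 of them beginning with DY and 3 with EB. An expressed sequence tag is a single read of a cDNA clone, so it shows that a gene was transcribed in the tissue that gave the library without saying what the gene encodes. A function is usually lent to such a tag from a similar sequence of another plant, and tags with no informative match are left with a placeholder description. The chickpea clones of this array were made from plants challenged with a pathogen, so their presence in leaves, flowers or cold-treated plants is not given by their origin. How the description Unclear differs from the description Unknown, which 231 other chickpea features carried, is not given in the sources used here, and no symbol or position could be attached to the 64 clones because 0 of their accessions were in the reference gene table used here.

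The array was used to compare cold-treated with control plants of 4 genotypes in 2 tissues. The cold tolerant genotypes were Sonali, called Tolerant1, and ILC 01276, called Tolerant2, and the cold susceptible genotypes were Amethyst, called Susceptible1, and DOOEN, called Susceptible2. The treatment was applied 2 weeks after flowering as nights at 5 °C with glasshouse days of 15 to 25 °C, tissue was taken after the 7th cold night, and control plants stayed in the glasshouse at 15 to 25 °C. Leaves were 1 tissue, and flowers, buds and early pods pooled together were the other, which is called flowers here. RNA came from pooled tissue of 5 plants per treatment, so a value is the mean of a pool, and the spread between replicates covers pools, labelling and slides together. Each hybridisation set cold-treated against control RNA of 1 genotype and 1 tissue, which gave 8 groups and 24 hybridisations. Replicates 1 and 3 of Tolerant2 flowers had identical files, as did replicates 1 and 3 of Susceptible2 flowers, and each such pair was counted once, so 22 distinct hybridisations remained, with 2 in those groups and 3 in the others. The cold RNA carried Cy5 in 14 and Cy3 in 8 of them. Over all hybridisations, 17.9 to 75.7% of spots were unflagged in both channels, and the 4 lowest shares (17.9, 30.7, 42.2 and 42.2%) were those of replicate 1 of Tolerant1 leaves, Susceptible1 leaves, Tolerant1 flowers and Susceptible1 flowers. Of 19 photosynthesis features set as markers of leaf tissue, 16 could be tested in control plants, 13 of them were higher in leaves, and 4 were called higher and 1 lower at the limits given below.

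The clones of unclear function were measured less completely than other chickpea features. A feature had 6 spots per hybridisation, and a value was kept when at least 1 spot was unflagged in both channels. The 64 clones had a value in 62.1% of the possible cases, against 80.1% for the chickpea features described as Unknown, 77% for all other chickpea features and 64.3% for all features other than controls, which include grasspea and lentil. Only 6 of the 64 had a value on all 22 hybridisations, and DY475380, DY475495 and DY475186 had a value on none. Where a clone was measured, its spots agreed as closely as elsewhere, with a median SD between the spots of 0.103 on the log2 scale, against 0.105 over all features. No spot of these clones reached the top of the scanner's range in any channel. The clones also stood together on the slide, 60 of 64 in print rows 9 and 10 of the sub-arrays.

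A channel was counted as detected when its mean signal over the 6 spots, flagged or not, was at least 2 times their mean local background. Cold RNA of these clones was detected in 68.4% of cases in leaves and in 75.9% of cases in flowers, and control RNA in 57% of cases in leaves and in 68% in flowers. Over all features other than controls, the shares in leaves and in flowers were 70.3% and 75.3% for cold RNA and 60.8% and 69.3% for control RNA. The lower share in leaves was therefore seen with the other features as well. The low unflagged shares of the replicate 1 leaf slides move with it, and their part was not tested.

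Abundance by tissue was compared in control plants first, as the mean of the 4 leaf groups minus the mean of the 4 flower groups of the control channel. The values are log2 intensities after background correction, loess within each hybridisation and quantile scaling between them, and a clone was tested when all 8 groups had at least 2 replicates. A difference was called when it was at least 2-fold with an adjusted p below 0.05 in limma, adjusted over all 406 features tested. Of the 64 clones, 35 could be tested and 6 were called (17.1%), 4 higher and 2 lower in leaves. The background was 19.2% (78 of 406), with 40 higher (9.85%) and 38 lower (9.36%), so the clones were called about as often as other features. At an unadjusted p below 0.05 there were 13 clones (37.1%), against 47% of all features. Among the features described as Unknown, 30 of 173 were called (17.3%), and among other chickpea features in print rows 9 and 10, 5 of 32. The median difference was -0.16 over the 35 clones and -0.11 over all features tested. In these pooled tissues, fewer cells of a type and less RNA per cell cannot be told apart.

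**Figure D1:**
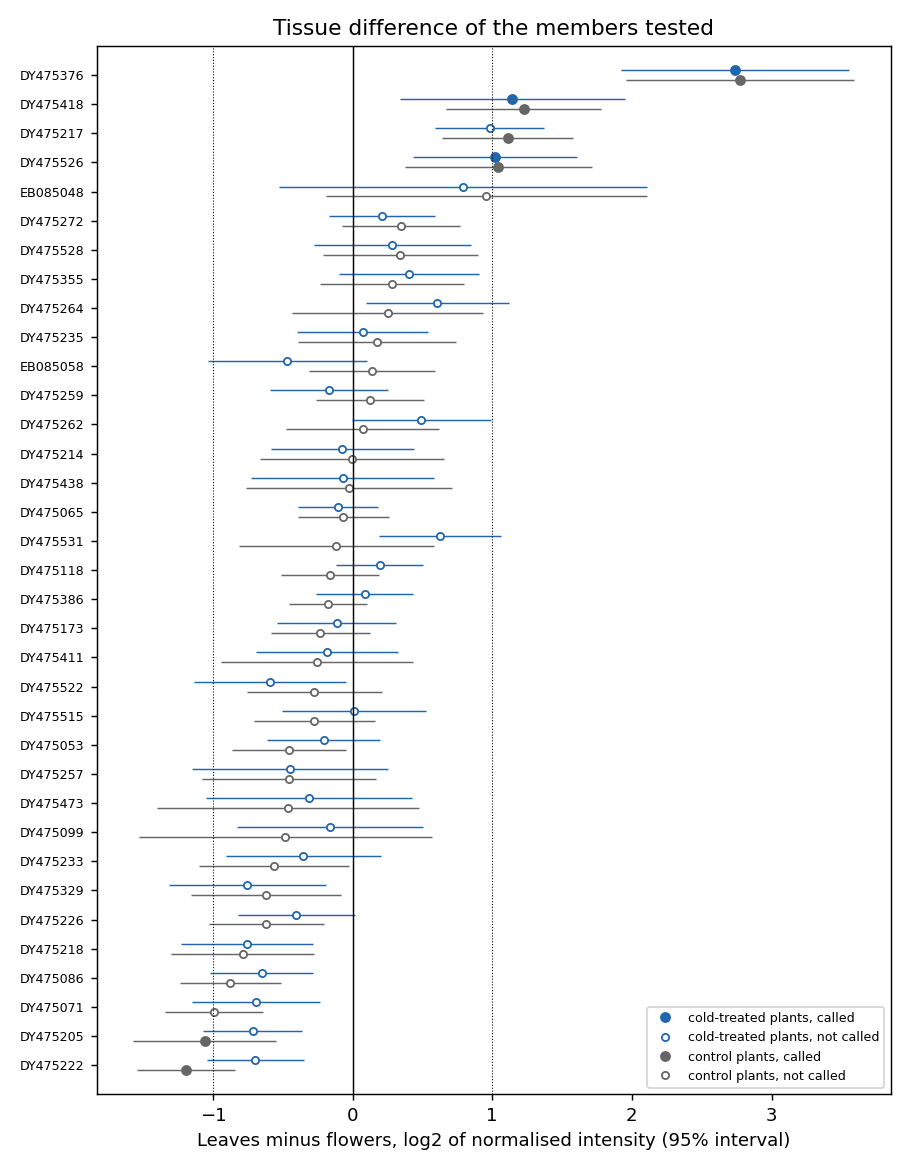
Difference between leaves and flowers for the 35 clones tested, in log2 of the normalised intensity with its 95% interval (horizontal axis), in cold-treated plants (upper, blue) and control plants (lower, grey). Filled points were called, dotted lines mark 2-fold, and DY475376 stands apart at 2.74 in cold-treated and 2.77 in control plants.

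DY475376 had the largest tissue difference of the 35. Its log2 level in control leaves had a lowest, median and highest value of 13.68, 14.13 and 15.02 (n = 11 hybridisations), against 9.55, 11.91 and 12.47 in control flowers (n = 8). In cold-treated plants the same values were 13.21, 14.65 and 15.06 in leaves and 9.72, 12.06 and 12.47 in flowers. Every leaf hybridisation lay above every flower hybridisation in both channels. This held for 11 of the 406 features in control plants and 10 in cold-treated plants. DY475376 was the only one of the 35 clones in either count. Both channels come from the same hybridisations, so the counts are not independent of each other.

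The leaf level of DY475376 was 2.77 higher on the log2 scale in control plants (95% interval 1.96 to 3.59), a 6.84-fold difference, with an adjusted p of 8.16e-05 in limma. In cold-treated plants it was 2.74 higher (95% interval 1.92 to 3.55), or 6.66-fold, with an adjusted p of 1.02e-04 in limma. The direction was the same in each genotype, with control differences of 3.33 for Tolerant1, 2.34 for Tolerant2, 3.48 for Susceptible1 and 1.95 for Susceptible2. A session here is a set of hybridisations with the same month and year in the date of the file headers. By session, the control difference was 3.43 among replicates 2 and 3 of Tolerant1 and Susceptible1. It was 2.14 among the hybridisations of Tolerant2 and Susceptible2. The remaining session, replicate 1 of Tolerant1 and Susceptible1, had no flower value of DY475376. DY475118, DY475173 and DY475386, in the same sub-array and print row, likewise had values on 8 of 10 flower hybridisations. Their lowest control signal in flowers was 1.06, 1.02 and 1.04 times the background, against medians of 51.1, 51.65 and 60.2. The missing flower values of DY475376 are therefore not read as low abundance in flowers. The lowest flower values, 9.55 in Susceptible1 and 10.06 in Tolerant1, were both from replicate 2, where the control signal was 2.15 and 2.09 times the background.

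DY475222 had the opposite pattern. Its control level in leaves had a lowest, median and highest value of 13.20, 14.12 and 15.16 (n = 12), against 14.86, 15.26 and 15.53 in flowers (n = 10). The 12 leaf values were spread over a wider range than the 10 flower values, and only the highest leaf value, 15.16 from Susceptible1, overlapped the flower values. The difference was -1.19 with a 95% interval of -1.54 to -0.84, that is 2.29-fold lower in leaves, with an adjusted p of 4.47e-05 in limma.

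By genotype the control difference of DY475222 was -1.29 for Tolerant1, -1.78 for Tolerant2, -0.73 for Susceptible1 and -0.98 for Susceptible2. Within the 3 sessions of the header date it was -1.12, -0.95 and -1.38. In cold-treated plants the leaf values were 14.08, 14.54 and 15.45 at the lowest, median and highest, against 15.08, 15.38 and 16.19 in flowers. That difference was -0.70 (95% interval -1.04 to -0.35), below the 2-fold limit, with an adjusted p of 0.00405 in limma.

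DY475205 was the other clone called lower in leaves. Its control levels had a lowest, median and highest value of 9.99, 10.87 and 11.95 in leaves (n = 10), against 11.18, 11.92 and 12.84 in flowers (n = 10). The ranges overlapped, and every genotype had the lower mean in leaves, with differences of -1.36 to -0.86. The difference was -1.06 (95% interval -1.57 to -0.55), 2.08-fold, with an adjusted p of 0.00254 in limma. In cold-treated plants it was -0.72 (adjusted p of 0.00424 in limma) and not called. The cold-treated difference was -1.14 in the session of replicates 2 and 3 of Tolerant1 and Susceptible1. It was -0.35 in the session of Tolerant2 and Susceptible2. These sessions hold different genotypes, so session and genotype cannot be told apart here.

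DY475418, DY475217 and DY475526 were called higher in leaves of control plants, each by a little over 2-fold. DY475418 had control levels of 11.89, 12.58 and 14.67 in leaves (lowest, median, highest, n = 12), against 11.15, 11.41 and 12.85 in flowers (n = 10), a difference of 1.23 (SE 0.263, adjusted p of 0.0015 in limma). DY475217 had 11.52, 12.17 and 12.80 in leaves (n = 10), against 10.25, 11.02 and 11.90 in flowers (n = 9), a difference of 1.11 (SE 0.22, adjusted p of 0.00128 in limma). DY475526 had 11.56, 12.63 and 14.26 in leaves (n = 12), against 11.01, 11.53 and 12.46 in flowers (n = 10), a difference of 1.04 (SE 0.319, adjusted p of 0.0154 in limma). The leaf and flower values of all 3 overlapped, and in all 3 the leaf mean was the higher in each of the 4 genotypes.

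The highest levels of DY475418 and DY475526 in leaves came from replicate 1 of Tolerant1, the slide with the fewest unflagged spots. Without that hybridisation DY475418 stayed called in control plants, DY475526 fell below 2-fold at 0.83, and in cold-treated plants the differences of DY475418 and DY475526 were 0.92 and 0.85 and not called. DY475205 also fell below 2-fold without some single flower hybridisations, with values of -0.97 to -0.92. DY475217 lay at 0.98 in cold-treated plants (adjusted p of 9.9e-04 in limma), just under 2-fold. Its log2 ratio also depended on the dye, with a dye coefficient of 0.30 (SE 0.0658, adjusted p of 0.0178 in limma), and 4 of 44 clones had such a dependence, as did 43 of 523 features in all (9.09% and 8.22%).

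**Figure D2:**
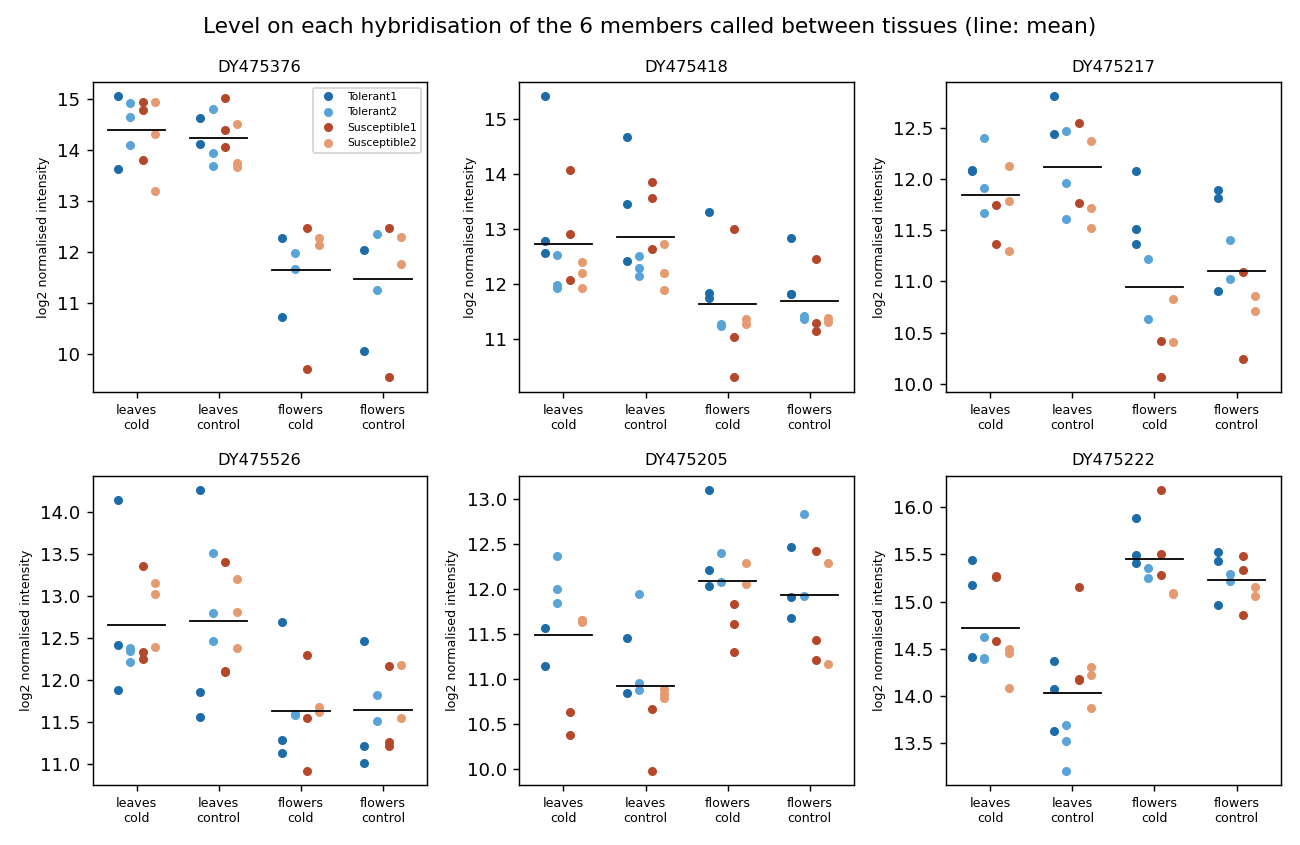
Log2 normalised intensity (vertical axis) of the 6 clones called in control plants, 1 point per hybridisation and coloured by genotype, for cold-treated and control leaves and cold-treated and control flowers, with the mean as a line. Leaf and flower points are separate for DY475376 only, and the other 5 clones overlap.

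In cold-treated plants, 3 of the 35 clones were called between tissues (8.57%), against 16% of all features (65 of 406, with 9.11% higher and 6.9% lower in leaves). At an unadjusted p below 0.05 there were again 13 clones (37.1%), against 46.6% of all features. They were DY475376, DY475418 at 1.15 (SE 0.383, adjusted p of 0.0254 in limma) and DY475526 at 1.02 (SE 0.279, adjusted p of 0.00881 in limma), all higher in leaves and all called in control plants too. The 3 clones called in control plants only had the same direction in cold-treated plants. Whether the tissue difference changed with cold is the test of the tissue difference in cold response given further on. It was called for none of these clones. The levels of both treatments come from the same hybridisations, so the agreement between control and cold-treated plants is not an independent repeat.

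In all, 22 of the 35 clones had a lower mean in control leaves and 13 a higher one. Of all features tested, 43.6% had a higher mean in control leaves. The next largest negative differences after the called clones, below the 2-fold limit, were those of DY475071, DY475086 and DY475218. DY475071 had control levels of 12.49, 12.85 and 13.25 in leaves (lowest, median, highest, n = 10), against 13.12, 13.80 and 14.31 in flowers (n = 10), a difference of -0.99 (SE 0.165, adjusted p of 3.13e-04 in limma). DY475086 differed by -0.87 (SE 0.172, adjusted p of 9.65e-04 in limma), with 13.28 to 14.29 in leaves and 14.21 to 15.41 in flowers. DY475218 differed by -0.79 (SE 0.24, adjusted p of 0.0175 in limma), with 12.93 to 14.37 in leaves and 13.40 to 15.00 in flowers. In DY475071 and DY475086 the leaf and flower values overlapped only at the ends of their ranges, and both were lower in leaves of each genotype in both channels. EB085048 had the fifth largest positive difference, 0.96 (SE 0.547, adjusted p of 0.177 in limma). Its control leaf values were 15.41 and 14.98 on replicate 1 of Susceptible1 and Tolerant1 and 10.48 to 12.11 on the other hybridisations. The control difference of EB085048 was 2.79 in the session of those replicate 1 slides and 0.76 and 0.48 in the other 2 sessions. Its leaf mean was the higher in each of the 4 genotypes. With the session as a term, added after seeing the data, the adjusted p of this difference was 0.0119 in limma, still below 2-fold. The log2 ratio of EB085048 depended on the dye, with a dye coefficient of 0.43 (SE 0.0731, adjusted p of 0.00423 in limma).

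Over the 35 clones, 7 had a higher mean in leaves in all 4 genotypes and 9 a lower one in control plants. In cold-treated plants the counts were 7 and 8. No such count was made over all features, so these counts do not set the clones apart. The remaining clones went different ways in different genotypes. Control levels of tolerant and susceptible genotypes were compared within each tissue as well. In leaves, 0 of 37 clones were called (background 0%, 0 of 445 features, limma), with 1 clone at an unadjusted p below 0.05 (2.7%, against 1.57% of all features), DY475222 at -0.57 (95% interval -1.04 to -0.10). In flowers, 0 of 39 were called (background 0%, 0 of 446 features, limma), and no clone had an unadjusted p below 0.05, against 0.448% of all features.

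The remaining 29 clones could not be tested between tissues, because values were missing in at least 1 group. Of all 64, 17 were detected in fewer than 6 of 12 leaf and fewer than 5 of 10 flower hybridisations in the control channel, and 2 were detected in none. Others were detected in flowers and hardly in leaves. DY475175 was detected in 1 of 12 control leaf hybridisations, against 10 of 10 in control flowers. Its signal in control leaves was 0.911 to 3.28 times the background with a median of 1.32, and in control flowers it was 2.22 to 14.3 times with a median of 6.92. DY475552 was detected in 2 of 12 leaf and 9 of 10 flower hybridisations, with a median signal of 1.43 times the background in leaves and 3.44 times in flowers.

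DY475546 was detected in 0 of 12 leaf and 6 of 10 flower hybridisations, and DY475313 in 1 and 5. These clones were named after their detection was seen. The counts of clones by detection, here and in the paragraph before, were not made over all features, so they do not set the clones apart. In the cold channel DY475175 was detected in 2 leaf and 10 flower hybridisations, so it was near the background in leaves of both treatments. When flagged spots were kept, all 64 clones could be tested between tissues in control plants and 8 were called, 3 higher and 5 lower in leaves. Of all 738 features tested that way, 39 were called higher and 62 lower in leaves, so the clones were called about as often as other features. DY475175 was then at -2.61 (adjusted p of 2.25e-05 in limma) and DY475552 at -1.43 (adjusted p of 0.001 in limma), both lower in leaves. DY475217 was no longer called, and DY475071 was added at -1.12. Because flagged spots include those the image software took as empty, the leaf value of such a clone is close to the background, and its fold difference depends on that background.

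**Figure D3:**
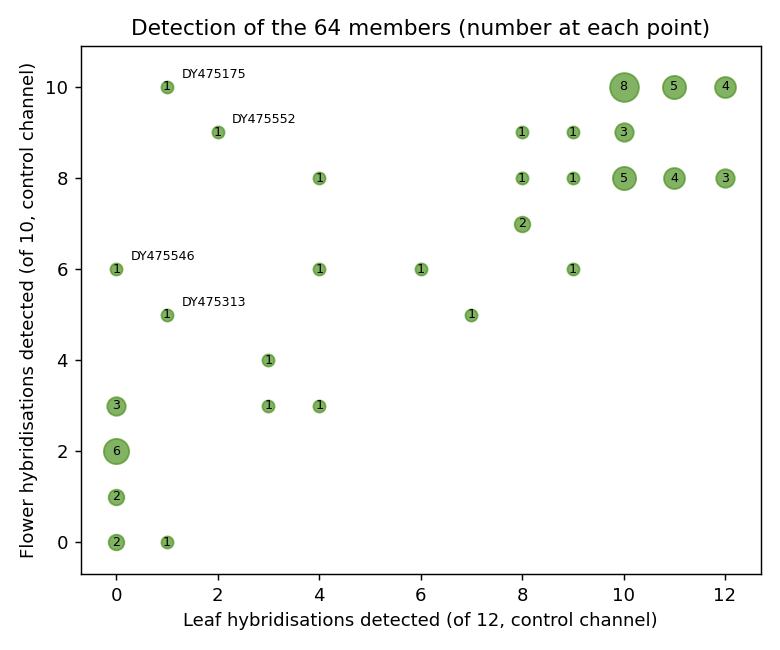
Number of control leaf hybridisations (horizontal axis, of 12) and control flower hybridisations (vertical axis, of 10) in which each of the 64 clones was detected at 2 times the background or more; the number in a point counts the clones there. DY475175, DY475552, DY475546 and DY475313 lie near the left edge, detected in 1, 2, 0 and 1 leaf hybridisations.

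The response to cold was the mean log2 ratio of cold-treated over control RNA in each group, set against 0. A clone needed values on at least 2 replicates, which 35 clones had in all 8 groups and 14 in none, and a response was called at 2-fold or more with an adjusted p below 0.05 in limma over all features tested in that group. No clone of unclear function was called in any of the 8 groups. In leaves the counts were 0 of 39 clones in Tolerant1 (background 1.26%, 6 of 475 features), 0 of 43 in Tolerant2 (0.586%, 3 of 512), 0 of 38 in Susceptible1 (0.797%, 4 of 502) and 0 of 42 in Susceptible2 (0.389%, 2 of 514). In flowers they were 0 of 43 in Tolerant1, 0 of 45 in Tolerant2, 0 of 42 in Susceptible1 and 0 of 45 in Susceptible2, against a background of 0% in each (0 of 478, 532, 485 and 535 features). With so few calls among all features, a count of 0 does not set the clones apart from the rest.

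The absence of calls is also partly set by the way the clones were chosen. The 2 clones described as Unclear that are not among the 64 were both called in leaves. EB085017 was at -1.41 in Tolerant2 leaves (SE 0.265, adjusted p of 0.00976 in limma) and at -1.24 in Susceptible1 leaves (adjusted p of 0.046 in limma). EB085045 was at 1.58 in Susceptible2 leaves (SE 0.298, adjusted p of 0.013 in limma).

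At an unadjusted p below 0.05, 28 of the 337 tests of these clones were past the limit. By group these were 1, 7, 2 and 4 clones in leaves of Tolerant1, Tolerant2, Susceptible1 and Susceptible2, and 8, 1, 2 and 3 in flowers of the same genotypes. Over all features the shares at that limit were 12.8, 11.1, 9.56 and 7.2% in leaves and 13.6, 1.88, 6.19 and 2.99% in flowers. The median response of the clones lay between -0.06 in Tolerant2 leaves and 0.08 in Susceptible1 leaves, and that of all features between -0.03 and 0.05. Loess sets the ratios of all features around 0 on each hybridisation, so these medians cannot show a shift common to all features. The median SE of a clone's mean was 0.251 to 0.288 on the log2 scale, where a 2-fold response is 1.

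**Figure D4:**
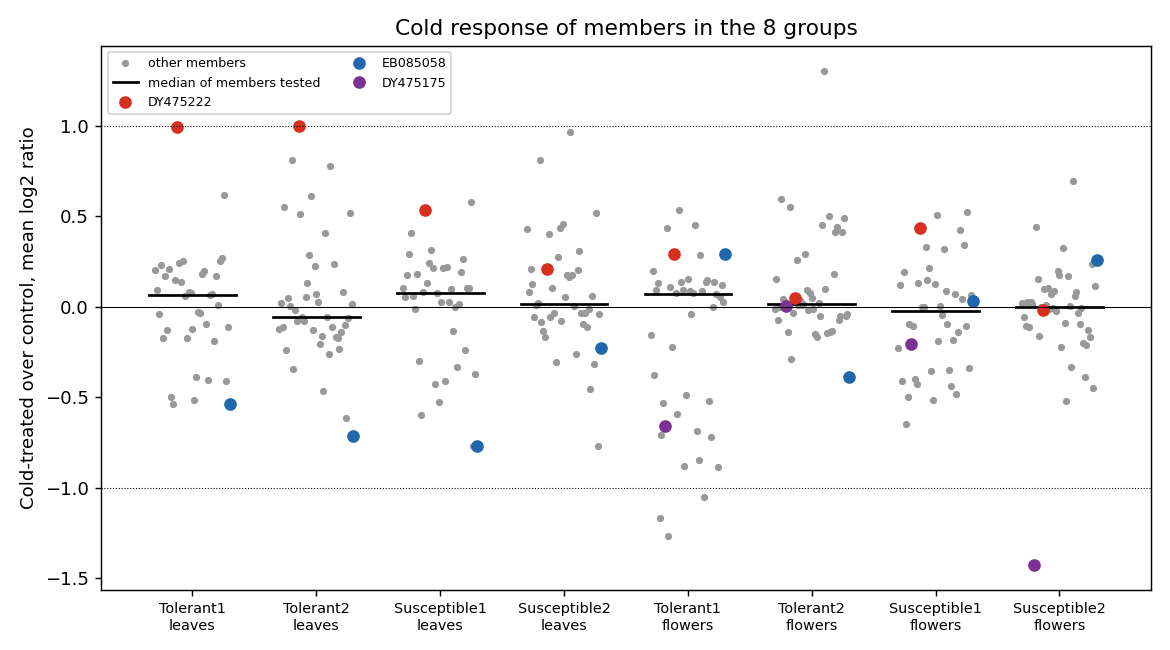
Mean log2 ratio of cold-treated over control RNA (vertical axis) of each clone tested in the 8 groups (horizontal axis), with the median of the clones as a black bar and 2-fold as dotted lines; no point was called. DY475222 is the highest clone in Tolerant1 and Tolerant2 leaves at 0.993 and 0.999, EB085058 lies below 0 in all 4 leaf groups, and DY475175 is at -1.43 in Susceptible2 flowers.

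DY475222 had the highest response in leaves of both tolerant genotypes. Its log2 ratios were 1.82, 0.81 and 0.35 in Tolerant1 leaves and 1.42, 0.70 and 0.88 in Tolerant2 leaves. In susceptible leaves they were 0.10, 1.09 and 0.42 in Susceptible1 and 0.14, 0.28 and 0.21 in Susceptible2. All 12 leaf ratios were thus above 0. In flowers 6 of 10 were, with -0.03, 0.93 and -0.02 in Tolerant1, 0.04 and 0.07 in Tolerant2, 0.02, 1.33 and -0.05 in Susceptible1 and 0.03 and -0.07 in Susceptible2.

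The means of DY475222 were 0.993 in Tolerant1 leaves (SE 0.289, adjusted p of 0.0889 in limma) and 0.999 in Tolerant2 leaves (SE 0.289, adjusted p of 0.0823 in limma), and neither passed the test. The difference between leaf and flower responses was 0.50 (SE 0.217, adjusted p of 0.483 in limma). This is the same quantity as the change of its tissue difference, which was -0.70 in cold-treated and -1.19 in control plants. In flowers the ratios of 0.93 and 1.33 were both from replicate 2, and the other 8 flower ratios lay between -0.07 and 0.07.

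EB085058 was the clone furthest below 0 in Tolerant2 leaves. Its log2 ratios were -0.00, -0.68 and -0.93 in Tolerant1 leaves, -1.32, -0.38 and -0.45 in Tolerant2 leaves, -0.57, -0.89 and -0.85 in Susceptible1 leaves and -0.43, 0.35 and -0.61 in Susceptible2 leaves, so 11 of 12 were below 0. In flowers they were 0.40, 0.75 and -0.27 in Tolerant1, -0.97 and 0.19 in Tolerant2, 0.12, 0.47 and -0.48 in Susceptible1 and -0.13 and 0.64 in Susceptible2. The flower ratios were on both sides of 0 in every genotype.

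The leaf means of EB085058 were -0.54, -0.72, -0.77 and -0.23 (SE 0.282 each) in Tolerant1, Tolerant2, Susceptible1 and Susceptible2, with adjusted p of 0.301 in limma in both Tolerant2 and Susceptible1 and 0.468 and 0.999 in the others. Its response in leaves was 0.61 lower than in flowers on the log2 scale (estimate -0.61, SE 0.212, adjusted p of 0.252 in limma), the smallest p of the 35 clones.

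**Figure D5:**
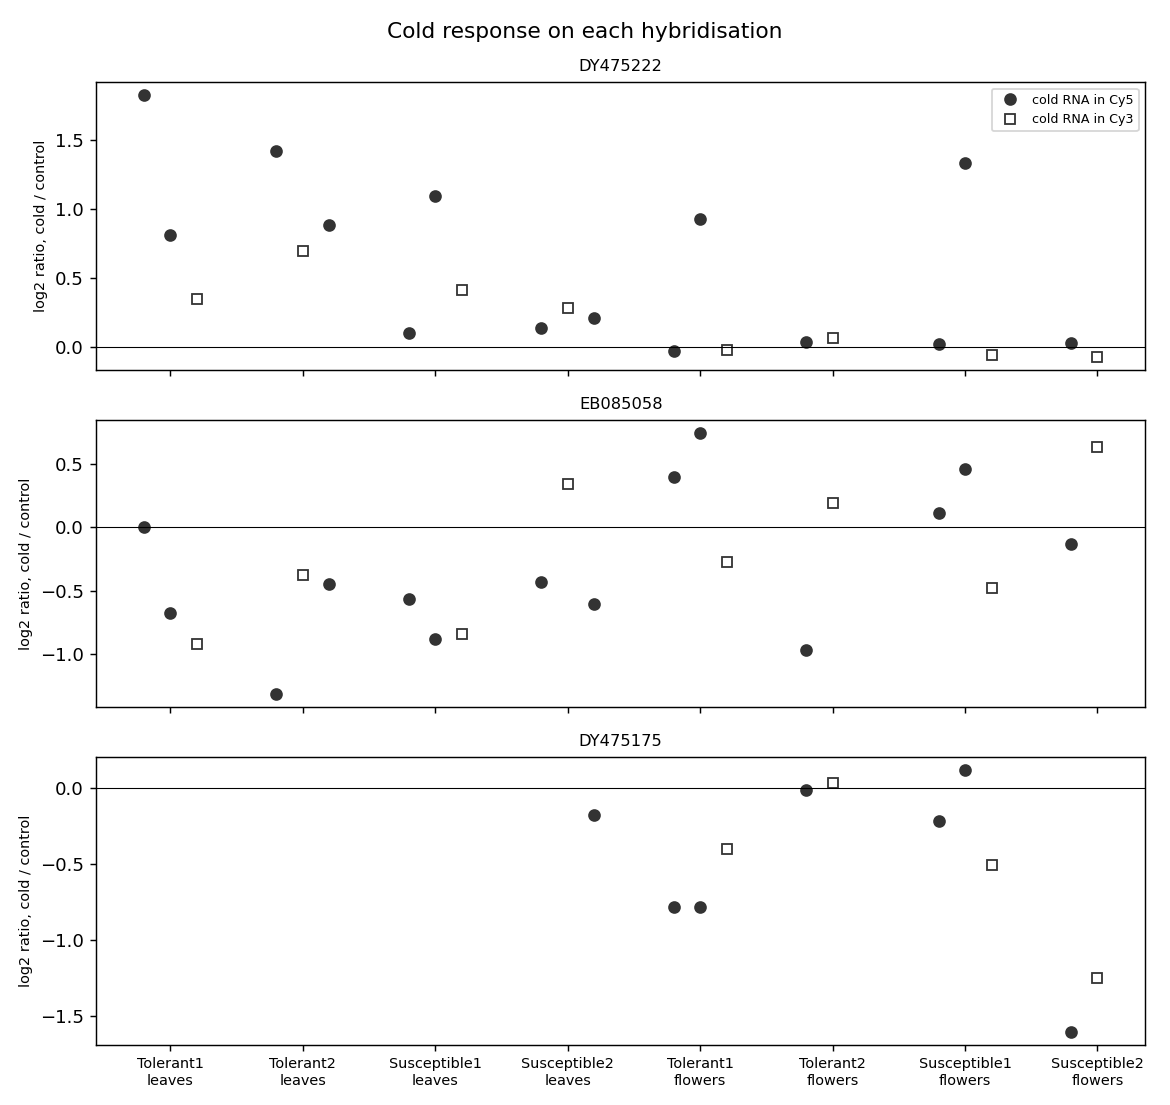
Log2 ratio of cold-treated over control RNA (vertical axis) on each hybridisation of the 8 groups (horizontal axis) for DY475222, EB085058 and DY475175, with filled circles where the cold RNA carried Cy5 and open squares where it carried Cy3. DY475222 is above 0 on 12 of 12 leaf hybridisations, EB085058 is below 0 on 11 of 12, and both hybridisations of DY475175 in Susceptible2 flowers are below -1.

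DY475175, detected mainly in flowers, had the lowest response of any clone in any group. Its ratios in Susceptible2 flowers were -1.61 and -1.25, with a mean of -1.43 (SE 0.233, adjusted p of 0.0608 in limma, n = 2). In Tolerant1 flowers they were -0.79, -0.79 and -0.40, in Tolerant2 flowers -0.02 and 0.03, and in Susceptible1 flowers -0.22, 0.12 and -0.51. The 5 flower ratios of Tolerant1 and Susceptible2 were therefore all below those of Tolerant2. The dye orientations of the Susceptible2 hybridisations were opposite, and both gave a negative ratio.

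Other means past 2-fold were found in flowers and none in leaves, and none passed the test. DY475389 averaged 1.30 in Tolerant2 flowers (SE 0.281, adjusted p of 1 in limma), from ratios of 1.63 and 0.98 on 5 and 4 spots. All 7 ratios of DY475389, in 5 groups, were above 0, between 0.69 and 1.63, and it had no unflagged value on the others. In the control channel it was detected in 3 of 12 leaf and 3 of 10 flower hybridisations. Its median control signal was 1.3 times the background in leaves and 1.6 times in flowers, so it was mostly near the background.

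In Tolerant1 flowers, DY475214 averaged -1.27 (SE 0.497), DY475099 averaged -1.17 (SE 0.497) and DY475411 averaged -1.05 (SE 0.425), with adjusted p of 0.272, 0.292 and 0.272 in limma. Each of these means owed its size to the replicate 2 hybridisation. Replicate 2 gave -2.57 for DY475214, -3.09 for DY475099 and -2.06 for DY475411, while replicate 3 gave 0.04, -0.03 and -0.04 for the same clones. Replicate 1 gave -0.38 for DY475099 and no value for the others. On that replicate 2 slide 7 of 48 clones were 4-fold or more below control, as were 48 of 538 features in all, and no other hybridisation had any of the 64 clones that low. DY475531 had -0.00, -2.58 and -0.07 in Tolerant1 flowers and DY475262 had -0.24, -2.10 and -0.29, so the same slide held their extremes.

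The clones at the ends of the other groups had smaller means. In leaves, the lowest in Tolerant1 was DY475217 at -0.54 (SE 0.309), and in Susceptible1 the highest was DY475531 at 0.58 (SE 0.517) and the lowest EB085046 at -0.77 (SE 0.259). EB085046 had ratios of -1.003, -0.23 and -1.08 there, and it had no value in Tolerant2 or Susceptible2. In Susceptible2 leaves, DY475367 was highest at 0.96 (SE 0.555) and DY475552 lowest at -0.77 (SE 0.335), each from 2 hybridisations.

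DY475367 also changed sign between replicates of Tolerant2 leaves, with -1.65 and 0.71. In flowers, DY475235 was highest in Tolerant1 at 0.54 (SE 0.212), EB085058 lowest in Tolerant2 at -0.39 (SE 0.346), DY475552 highest and DY475099 lowest in Susceptible1 at 0.52 (SE 0.273) and -0.65 (SE 0.609), and DY475400 highest in Susceptible2 at 0.69 (SE 0.259). The adjusted p of these was 0.272 or more in limma. DY475235 was above 0 in 9 of 10 flower hybridisations, and its Tolerant1 mean rested on ratios of 0.25, 1.16 and 0.20.

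Of the 35 clones tested in all 8 groups, DY475086 was the only one with a mean above 0 in each, 1 of them 0.00, and no clone was below 0 in each. The responses of leaves and flowers were compared directly in the same 35 clones. None differed at an adjusted p below 0.05, against 1.72% of all features (7 of 406, limma), and 3 clones did at an unadjusted p below 0.05 (8.57%, against 7.88% of all features). After EB085058, the most negative differences were DY475522 at -0.32 (SE 0.149) and DY475259 at -0.29 (SE 0.187). The most positive were DY475531 at 0.74 (SE 0.334), DY475222 at 0.50 and DY475262 at 0.42 (SE 0.236). Without replicate 2 of Tolerant1 flowers, the value of DY475262 was 0.26 and that of DY475531 was 0.53.

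Tolerant and susceptible genotypes were compared for their cold response within each tissue. In leaves, 0 of 37 clones differed (background 0%, 0 of 445 features, limma), with differences from -0.48 to 0.62 and 1 clone at an unadjusted p below 0.05 (2.7%, against 1.8% of all features). In flowers, 0 of 39 differed (background 0%, 0 of 446 features, limma), with differences from -0.33 to 0.49 and 1 clone at an unadjusted p below 0.05 (2.56%, against 0.224% of all features). The SE of such a difference had a median of 0.264 among leaf tests and 0.296 among flower tests.

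DY475323 and DY475329 appear in the study's list of transcripts shared by both genotypes of a tolerance class under cold, and their values are given for that reason. DY475323 had a value on 11 of 22 hybridisations. In Tolerant2 leaves its ratios were 0.32 and -0.28, each from 1 unflagged spot, and in Tolerant1 leaves its single ratio was -0.47, also from 1 spot. Its mean in Tolerant2 leaves was 0.02 (SE 0.555, adjusted p of 1 in limma), so these spots did not fix a direction. The authors' deposited means of DY475323, described in the next paragraph, were -1.42 in Tolerant1 and -2.05 in Tolerant2 leaves, both more than 2-fold below control. DY475329 had leaf means of -0.39 in Tolerant1 (SE 0.359), -0.20 in Tolerant2 (SE 0.293), -0.41 in Susceptible1 (SE 0.359) and 0.17 in Susceptible2 (SE 0.293), with adjusted p of 0.754 to 0.999 in limma. The authors' deposited means of DY475329 were -1.70 in Susceptible1 and -1.07 in Susceptible2 leaves, and the mean used here for Susceptible2 leaves had the opposite sign. The study lists both clones with P values in those leaves, having kept genes by a t test with false discovery rate correction at P below 0.05.

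The deposited table of the authors' means carries no test of its own, unlike the study's list of shared transcripts. The study gives its ratios relative to untreated controls, the table correlated positively with the cold over control ratios of the scanner values in every group, and its shift and centring are not given in the sources used here. In it, 21 of 177 leaf means of the clones lay past 2-fold (11.9%, against 16.3% of all features), all 21 below control, and 13 of 199 flower means did (6.53%, against 7.6% of all features). The median over all features in that table was itself below 0 in each leaf group, from -0.197 in Tolerant1 to -0.116 in Susceptible1. The difference between the clones and all features was not tested. In the means used here, no leaf mean and 5 flower means of the clones were past 2-fold. EB085058 gave 4 of the 21, with authors' means of -1.63 and -1.13 in Tolerant1 and Tolerant2 leaves and -1.84 and -1.18 in Susceptible1 and Susceptible2 leaves.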

How the data were processed

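The authors deposited 1 scanner file per channel, whose intensity values are the mean pixel signal and mean local background of each spot from ImaGene image analysis of Affymetrix scans, without normalization. The deposited files also give each spot's quality code, which is 0 for an unflagged spot. A further table deposited by the authors holds log2 ratios, 1 mean per feature and group, made by background subtraction, removal of flagged spots, LOWESS and combination of spots and replicates, as ratios relative to untreated plants, with shift and centring not given in the sources used here. It was used as an alternative only. The dye of each channel was read from the file names, which the headers matched for 22 of 24 hybridisations, the other 2 naming no dye. Features were named by joining the study's feature list to the spots in print order, and 732 of 732 full positions in that list matched. The rows of 1 file stood in another order and were put back by position.

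Intensities were corrected with normexp (offset 50), unflagged spots were normalised by loess within each hybridisation (span 0.3, 4 iterations), swapped hybridisations were turned, and spots of a feature were averaged, in limma 3.58.1 under R 4.3.3. Levels were also scaled between hybridisations on their average intensity (Aquantile). Features other than controls entered when either channel was detected at 2 times the background on at least 1 hybridisation, 738 of 756, and all 64 clones did. Group means were fitted with lmFit and eBayes over all 22 hybridisations and contrasts adjusted by Benjamini-Hochberg over all features tested. The labels call the replicates biological, but their p-values measure only the spread between pooled samples. Saturated pixels within a spot are not recorded, and the number of hybridisations limits the precision. The fit was tested on simulated data.

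The clones and lists were chosen with earlier results of these data known. Clones were named when called in any comparison, when highest or lowest in a group, when among the 5 largest tissue differences or 3 largest differences in cold response each way, when in the study's list of shared cold transcripts, or when without any value. Alternatives changed the background correction, the normalization, the flags, the filter, the dye and session terms, the block and the replicates used. Sequences of the clones were not used here.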

Additional observations from a re-analysis of the deposited data

How the results depend on the processing

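In control plants the count of clones called between tissues was 6, and it was 3 without background correction and 3 with scaling to the 75th percentile. In cold-treated plants it was 3, and 1 with that scaling, where the median of all features moved to -0.15, against -0.02. The split of higher and lower calls in cold-treated plants, 37 to 28 over all features, became 28 to 31 with that scaling and 37 to 49 with flagged spots kept, and in control plants 40 to 38 became 39 to 62 with flagged spots kept. Leaving out 1 hybridisation at a time gave 3 to 7 clones in control and 1 to 4 in cold-treated plants. The 3 came without replicate 3 of Susceptible1 flowers and without replicate 2 or 3 of Tolerant1 leaves, and the 1 without replicate 2 of Susceptible1 flowers, replicate 2 or 3 of Tolerant1 flowers or replicate 1 of Tolerant1 leaves. As few as 10 of the 35 clones could then be tested. DY475376 could not be tested without some of these, and was called under every alternative that could test it. DY475222 was called in control plants under all of them. DY475526 in control plants was 0.83 to 0.99 without any of 6 single hybridisations, and DY475418 in cold-treated plants had an adjusted p of 0.0501 to 0.0529 in limma without any 1 hybridisation of Tolerant2 or Susceptible2 flowers.

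For cold responses in flowers, DY475175 in Susceptible2 was called with flagged spots kept (1 clone, -1.46, adjusted p of 0.0198 in limma) and with identical file pairs counted separately (1 clone, -1.49). Leaving out replicates gave 0 in both tissues. The mean of EB085058 in Tolerant2 flowers turned to 0.19 without replicate 1 and was -0.97 without replicate 2, against -0.39 with both. In the authors' table, without a test, 21 leaf means and 13 flower means of these clones were past 2-fold. Pearson's r between that table and the means used here was 0.58 to 0.905 across features, which are not independent replicates. The cause of these differences was not tested.

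Same-numbered replicates were not taken as pairs, because the labels do not tie them and not every pair's deviations correlated above 0.1. For log2 ratios the correlation was -0.116 to 0.515 (mean 0.21) over 10 pairs of leaves with flowers, and 10 of 16 hybridisations correlated best with their own number. Between the tolerant and susceptible genotypes of a set it was -0.106 to 0.791 (mean 0.424) over 11 pairs. There 16 of 18 did so, a hint of shared deviations. For control levels of these 11 pairs the correlation was 0.023 to 0.805 (mean 0.494), and again 16 of 18 did so. The replicate block of the tissue comparisons joined leaves with flowers of a genotype and did not take up this sharing. The SE and adjusted p of the tissue differences take these hybridisations as independent and may be too small. With the replicate block, 1 clone differed in cold response between tissues (EB085058, -0.64, adjusted p of 0.0351 in limma), and the tissue counts were 7 in control plants, with EB085048 added (1.14, adjusted p of 0.00529 in limma), and 4 in cold-treated plants, with DY475217 added (1.13, adjusted p of 2.11e-04 in limma). The counts between tolerant and susceptible genotypes were 0 in each tissue with the block. Under the other alternatives the counts stayed within 1.5 times. Missing values limit the tests between tissues to 35 of 64 clones.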
